A study of Mus musculus with 2 samples.

Results

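The genes described here are 5 ligands of the epidermal growth factor (EGF) family, Areg, Hbegf, Ereg, Nrg1 and Tgfa, and the receptor Egfr. They were found by exact symbol in the gene lists of both deposited matrices and make up 6 of the 32285 genes measured. Areg was chosen by its UMI levels in these same libraries, which were lower in endothelial cells and higher in dendritic cells of the library labelled EC-Cx43-KO than in the control. Those values of Areg are therefore a description and support nothing, and the other members were taken as its relatives and its receptor.

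The study profiled single cells of mouse carotid arteries 18 h after an injury made by tying the vessel temporarily, which damages the endothelium, to ask what endothelial connexin 43 does in wound healing. Each of the 2 groups is 1 library. The control group carries floxed Gja1 alleles without Cre (CDH5 Cre- Cx43fl/fl), and the EC-Cx43-KO group carries the same floxed alleles with Cre under the promoter of the endothelial gene Cdh5 (CDH5 Cre+ Cx43fl/fl). The deletion is described as inducible, and no age or sex is given. The arteries of a condition were pooled, digested and frozen as a cell suspension before 10x Genomics 3' sequencing. The number of animals in a pool was not given, so the libraries have no replicates and no test between groups was possible. The intervals below are 95% intervals and cover counting error only.

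EGF family ligands are made as membrane-anchored precursors that metalloproteases, chiefly ADAM17, cut loose so that they can act on nearby cells. Areg, Tgfa, Ereg and Hbegf bind EGFR, Hbegf and Ereg also bind ERBB4, and Nrg1 binds ERBB3 and ERBB4 rather than EGFR. Bound receptors pair, phosphorylate each other and signal through Ras and ERK to growth, migration and repair genes. In arteries HB-EGF is known as a growth factor for smooth muscle, neuregulin 1 passes from endothelium to neighbouring cells, and amphiregulin is known as a product of innate lymphoid cells, regulatory T cells, mast cells and myeloid cells in injured tissue.

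Areg and Ereg are neighbours in the genome (GRCm38). Areg (ENSMUSG00000029378) spans chr5:91139599-91148432 on the plus strand, beside Ereg (ENSMUSG00000029377, chr5:91074622-91093646, plus strand), with Epgn and Btc on either side of the pair. Nrg1 (ENSMUSG00000062991) lies on chromosome 8 with a gene body of 1069479 bases, Tgfa (ENSMUSG00000029999) on chromosome 6 and Egfr (ENSMUSG00000020122) on chromosome 11.

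Promoter sequences in RefSeq's table for GRCm38.p6 matched Areg, Tgfa and Egfr. They are shown because Areg was chosen by differences of opposite sign in endothelial and dendritic cells, with Tgfa and Egfr beside it for comparison. Each is the 250 bases before the start of the gene, read 5' to 3' on the gene's strand. Capitals mark a cyclic AMP response element (CRE, TGACGTCA) and a TATA box (TATAAA) in Areg, and GC boxes (GGGCGG, on either strand) in Tgfa and Egfr.
Areg, chr5:91139349-91139598, plus strand: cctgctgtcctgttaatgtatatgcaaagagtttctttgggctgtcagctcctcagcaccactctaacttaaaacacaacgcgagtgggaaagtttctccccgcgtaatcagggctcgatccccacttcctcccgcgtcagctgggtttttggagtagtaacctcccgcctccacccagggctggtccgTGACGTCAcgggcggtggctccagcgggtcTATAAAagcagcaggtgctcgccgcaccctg
Tgfa, chr6:86194972-86195221, plus strand: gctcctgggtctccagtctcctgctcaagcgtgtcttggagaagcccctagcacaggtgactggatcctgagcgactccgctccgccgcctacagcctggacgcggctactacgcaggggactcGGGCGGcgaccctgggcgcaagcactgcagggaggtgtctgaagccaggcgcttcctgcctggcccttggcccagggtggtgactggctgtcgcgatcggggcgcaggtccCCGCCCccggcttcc
Egfr, chr11:16751953-16752202, plus strand: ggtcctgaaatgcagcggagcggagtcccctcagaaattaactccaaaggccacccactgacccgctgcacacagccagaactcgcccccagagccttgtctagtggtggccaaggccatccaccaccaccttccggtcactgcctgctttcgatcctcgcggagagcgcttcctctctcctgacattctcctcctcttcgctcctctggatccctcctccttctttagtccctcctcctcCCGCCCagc
Both strands were searched. The CRE of Areg begins 61 bases before the start, and 508 of 32851 promoters of the same length (1.55%) held these letters. The TATA box of Areg begins 31 bases before the start, against 12.4% of promoters with the motif. The Areg window also held a GC box 52 bases before the start. Tgfa held GC boxes 126 and 15 bases before the start and Egfr held 1 at 9 bases, a motif found in 32.7% of promoters. No CRE, TATA box or AP-1 letters (TGANTCA, 6.75% of promoters) were found in the Tgfa and Egfr windows, and no AP-1 letters in that of Areg. The windows were 57.2% (Areg), 69.2% (Tgfa) and 60.8% (Egfr) GC.

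After filters 6376 control and 7236 EC-Cx43-KO cells were kept, with medians of 4764 and 4832 unique molecular identifiers (UMIs, counts of captured RNA molecules) per cell. Cells were clustered without the EGF genes and Gja1, and classes were named from marker lists. The 7 classes with at least 100 cells per library held 405 and 428 endothelial (EC-like), 413 and 551 smooth muscle (SMC-like), 1505 and 1932 monocyte/macrophage-like, 1332 and 1515 fibroblast-like, 1104 and 1290 neutrophil-like, 231 and 225 dendritic-like cells, and 997 and 635 cells of an unnamed cluster led by Fabp5 and Ppbp that carries 11 monocyte/macrophage markers beside platelet genes. The EC marker list summed to 9079 and 9121 CPM (UMIs of a gene scaled to a total of 1000000 UMIs in the class) in EC-like cells, with all 10 markers present. In dendritic-like cells the dendritic list summed to 7210 and 6888 CPM and the monocyte/macrophage list to 8905 and 7077 CPM. The 2 libraries shared 17 barcodes, 12 of them kept. Cells with Xist and no Y-linked UMIs made up 49.0% of the control and 37.9% of the EC-Cx43-KO cells, and cells with Y-linked UMIs only 18.3% and 27.3%, so the pools differed in these shares. Haemoglobin RNA summed to 13.1 CPM in dendritic-like cells of the control and 2846 CPM in those of the EC-Cx43-KO library, and to 602 and 1241 CPM in EC-like cells. The part of these differences between pools in the results below was not tested beyond the values given. Gja1, which encodes Cx43, had 66 UMIs in 32 control and 61 UMIs in 35 EC-Cx43-KO EC-like cells, 16.6 and 16.0 CPM (log2 ratio -0.06, -0.58 to 0.47). A 3' tag need not fall in the deleted exons, so Gja1 does not check the label, and the library is called by its label throughout.

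The ligands and Egfr were held by different classes, and the order of classes was nearly the same in both libraries. Areg had its highest CPM in dendritic-like cells, followed by the Fabp5/Ppbp-led cluster and monocyte/macrophage-like cells, and these 3 held 26.7%, 38.4% and 31.1% of its control UMIs. Hbegf and Ereg were highest in EC-like and SMC-like cells, followed by fibroblast-like cells. Tgfa was found almost only in EC-like cells and, at a lower level, in fibroblast-like cells. Nrg1 was highest in the 3 myeloid classes other than neutrophils. Their order for Nrg1 was monocyte/macrophage-like (198 CPM), dendritic-like (172 CPM) and Fabp5/Ppbp-led (131 CPM) in the control, with overlapping intervals for the upper pair. In the EC-Cx43-KO library the Fabp5/Ppbp-led cluster came before monocyte/macrophage-like and dendritic-like cells (118, 113 and 104 CPM), and neighbours in that order overlapped. For Areg, neighbours among the 3 classes did not overlap in either library. Egfr was highest in fibroblast-like cells, followed by SMC-like cells and by monocyte/macrophage-like cells. Over all kept cells the control and EC-Cx43-KO libraries held 1011 and 1693 Areg, 3976 and 3937 Hbegf, 546 and 552 Ereg, 3214 and 2508 Nrg1, 335 and 263 Tgfa and 7439 and 8717 Egfr UMIs. The bars of CPM by class show these separate distributions.

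**Figure D1:**
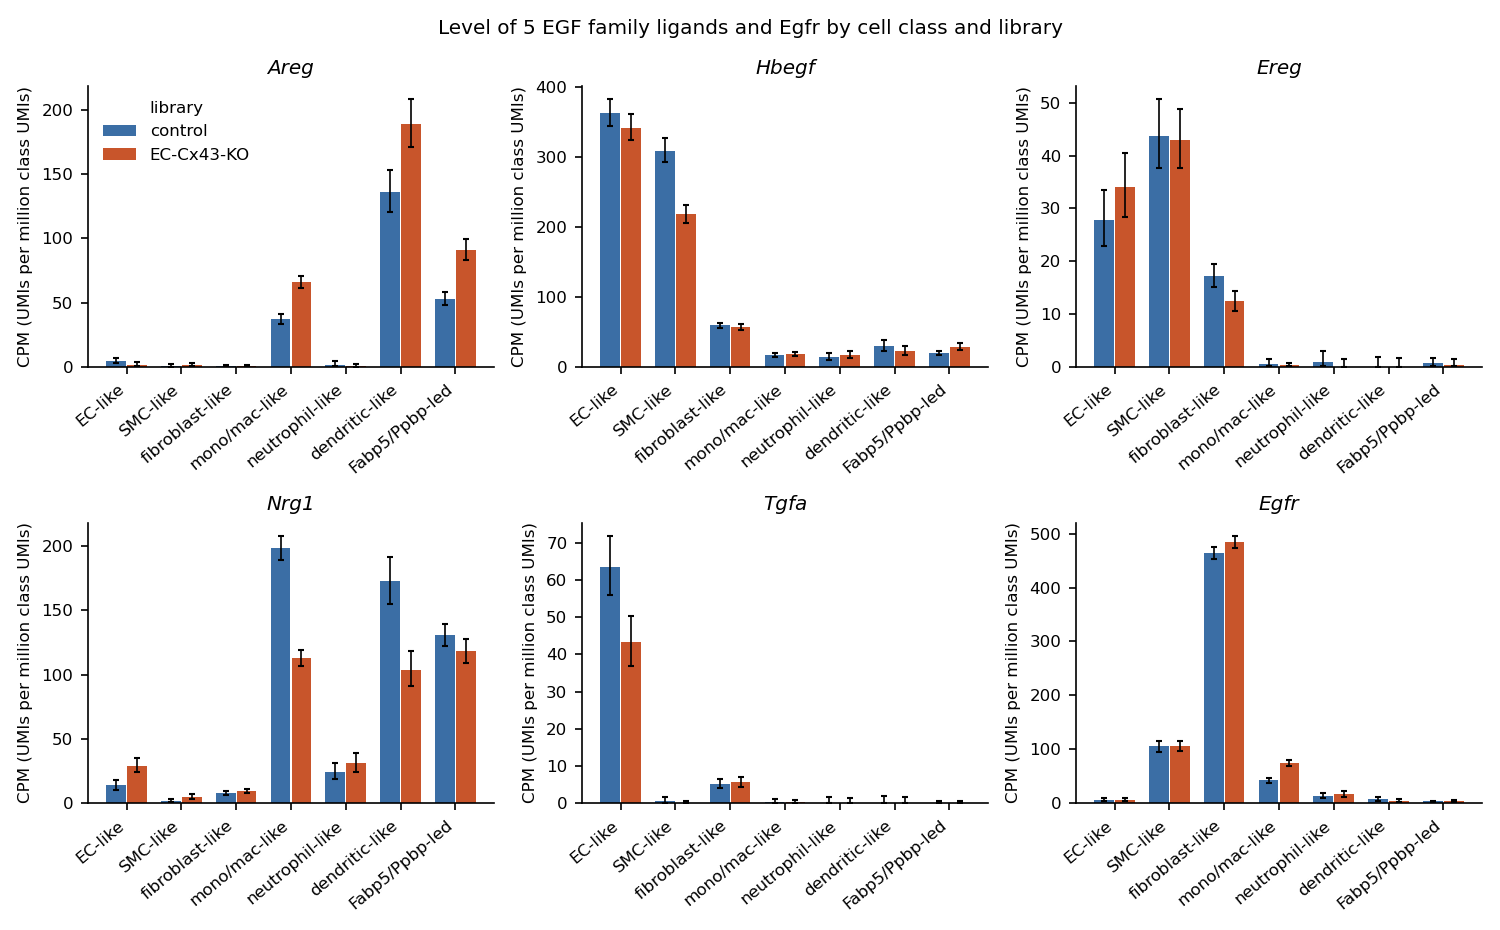
CPM of each member in the 7 classes (x axis) in the control and EC-Cx43-KO libraries, 1 bar per library, with exact Poisson 95% intervals. Areg and Nrg1 bars stand in the myeloid classes, Hbegf, Ereg and Tgfa bars in vessel wall classes, and Egfr reaches 464 and 484 CPM in fibroblast-like cells.

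Of 42 pairs of a member and a class, 30 had at least 20 UMIs over both libraries, and 9 of these differed by 1.5-fold or more (log2 ratio of 0.58 or more in size, EC-Cx43-KO over control). Among EC-like cells 2 of 6 members passed that size, Areg lower and Nrg1 higher, beside 10.6% of all genes with at least 20 UMIs. Areg was chosen by its differences in EC-like and dendritic-like cells. Its part in the counts and medians of those classes was therefore set by that choice and supports nothing. The background was 10.2% in SMC-like cells, where 1 of 4 passed (Nrg1, higher), and 11.5% in fibroblast-like cells, where 0 of 5 passed. In monocyte/macrophage-like cells 3 of 4 passed (Areg and Egfr higher, Nrg1 lower), beside 13.5% of genes. In neutrophil-like cells 0 of 3 passed, beside 19.2%. In dendritic-like cells 2 of 4 passed (Nrg1 and Egfr lower), beside 19.5%. In the Fabp5/Ppbp-led cluster 1 of 4 passed (Areg, higher), beside 10.2%. With 3 to 6 members counted per class, 1 member more or less changes these shares widely, so nothing is read from the counts of 1 or 2. The median log2 ratio of the members counted was -0.10 in EC-like, -0.01 in SMC-like, 0.06 in fibroblast-like, 0.48 in monocyte/macrophage-like, 0.35 in neutrophil-like, -0.54 in dendritic-like cells and 0.32 in the Fabp5/Ppbp-led cluster. The same medians over all genes counted lay between -0.12 and -0.03. The plot of log2 ratios gives each pair with its interval.

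**Figure D2:**
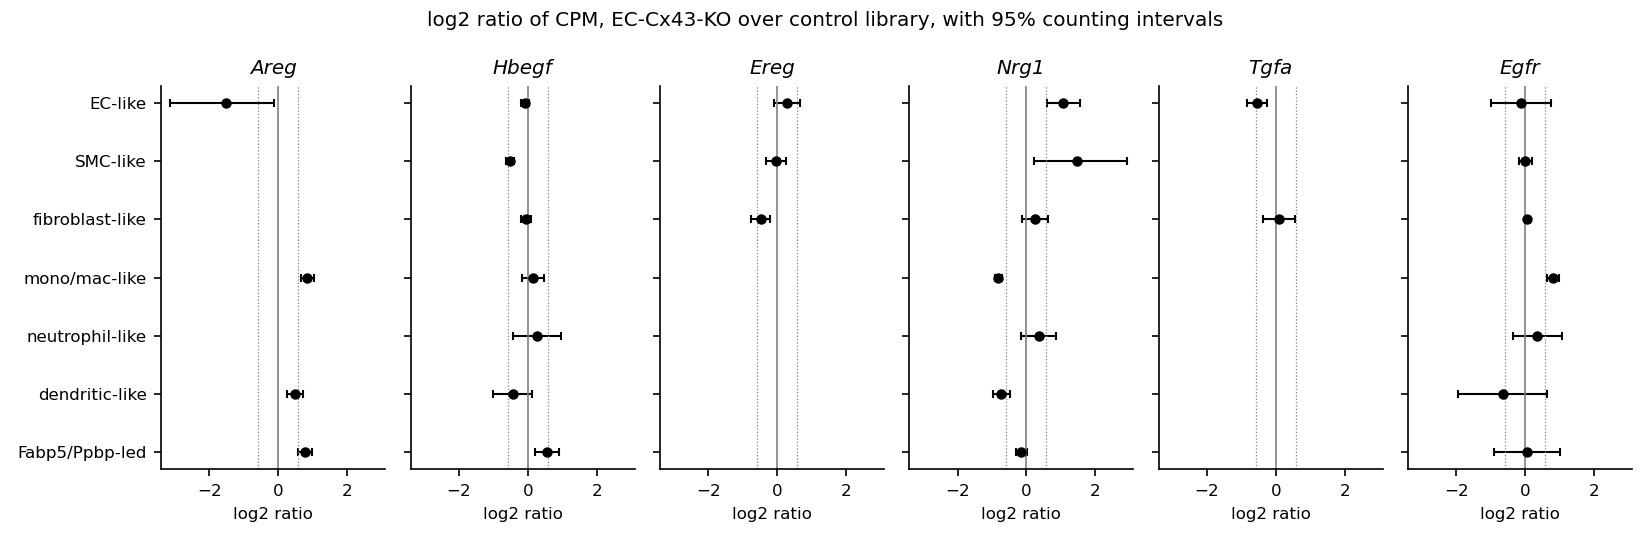
log2 ratio of CPM, EC-Cx43-KO over control (x axis), for each member in each class (y axis) with at least 20 UMIs, with exact 95% counting intervals. Dotted lines mark 1.5-fold. Areg was chosen by its EC-like and dendritic-like differences. Areg lies right of 0 in the 3 myeloid classes it is counted in and left of 0 in EC-like cells, where its interval is the widest of the Areg points, and Nrg1 lies left of 0 in monocyte/macrophage-like and dendritic-like cells.

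Areg, which encodes the low-affinity EGFR ligand amphiregulin, was near the detection limit in endothelial cells. The 405 control EC-like cells held 18 Areg UMIs in 8 cells, with counts of 5, 4, 2, 2, 2, 1, 1 and 1, and the 428 EC-Cx43-KO cells held 6 UMIs in 6 cells. That is 4.54 CPM (2.69 to 7.17) against 1.57 CPM (0.58 to 3.42), a log2 ratio of -1.53 (-3.15 to -0.13). The control value was the higher. RNA free in the suspension was estimated to give 1.59 (control) and 2.32 CPM (EC-Cx43-KO) of Areg, so the EC-Cx43-KO value lay below the estimate. The estimate is coarse, as it also exceeded the 0.57 and 0.54 CPM of Areg in fibroblast-like cells. Thinned to 1000 UMIs per cell, 3 of 400 control cells (0.75%) and 0 of 428 EC-Cx43-KO cells had an Areg UMI, against 1.98% and 1.40% unthinned. In fibroblast-like cells, which serve as a background class, the shares were 0.60% and 0.46% unthinned, at median depths of 7302.5 and 6906 UMIs against 7487 and 7348.5 in EC-like cells. Without the 5 cells with most Areg in each library 3 and 1 UMIs were left, too few to show a difference. In the 8 control cells with Areg the monocyte/macrophage list summed to 877 CPM, against 535 CPM in the 397 without, and the EC list to 8664 against 9089 CPM. In the EC-Cx43-KO library those sums were 375 and 417 CPM for the monocyte/macrophage list.

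The larger endothelial difference in Areg that some filters gave rested on a single barcode of the control library. This barcode held 82 Areg UMIs among 20437 UMIs and 4935 genes, grouped with EC-like cells, and was removed here as a called doublet (2 cells under 1 barcode), with 66.7% simulated doublets among its neighbours. It carried 103 UMIs of the EC list, among them 24 of Pecam1 and 35 of Ptprb. It also carried 105 UMIs of the list of group 2 innate lymphoid cell (ILC2) markers, 24 of the transcription factor Gata3, 18 of the IL-33 receptor Il1rl1, 30 of the cytokine Il5 and 33 of Rora. In control EC-like cells Il5 was at 0 and Il1rl1 at 0.25 CPM, while Gata3 stood at 71.3 CPM and Rora at 194 CPM. The latter pair was thus also found in EC-like cells, but the barcode held more, 1174 CPM of Gata3 and 1615 CPM of Rora. Il13, Calca and Klrg1 of that list were at 0. Of the T cell list Trbc2 had 3 and Il7r 11 UMIs, with Cd3e, Cd3d, Cd3g, Trac, Cd4, Cd8a and Lck at 0. Of the regulatory T cell list Il2ra had 12, Tnfrsf18 5 and Ikzf2 1 UMI, with Foxp3 at 0, and of the mast cell list Kit had 10. The highest EC-like barcode of the EC-Cx43-KO library, also a called doublet, held 18 Areg UMIs with 182 UMIs of the monocyte/macrophage list and 80 of the EC list. With doublets kept, EC-like cells held 101 and 26 Areg UMIs (log2 ratio -1.94), and without the barcode with most Areg in each library 19 and 8 (-1.23, -2.63 to 0.03). The plot of the cells with most Areg shows how far these 2 barcodes stand from the kept EC-like cells.

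**Figure D3:**
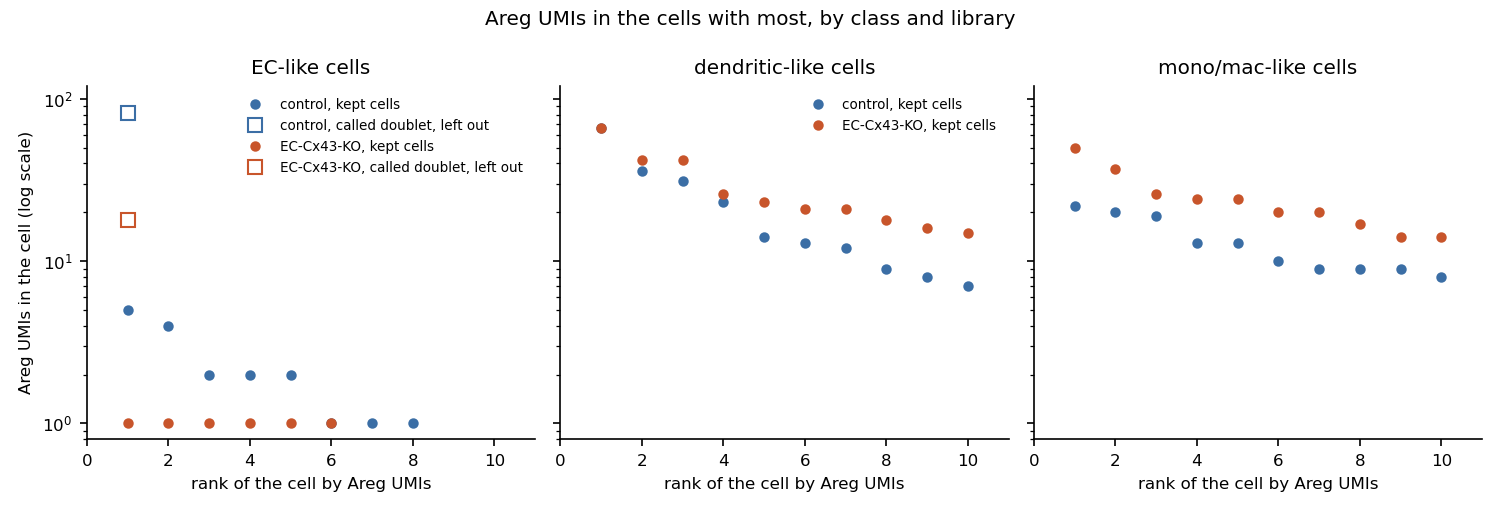
Areg UMIs (y axis, log scale) in the up to 10 cells with most, by rank (x axis), in EC-like, dendritic-like and monocyte/macrophage-like cells of both libraries. Filled points are kept cells and open squares the called doublets among EC-like barcodes, at 82 (control) and 18 (EC-Cx43-KO), while the kept EC-like cells hold at most 5.

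Dendritic-like cells, which take up and present antigen, had the highest Areg level of the classes in both libraries. The control cells held 270 Areg UMIs in 31 of 231 cells and the EC-Cx43-KO cells 414 UMIs in 43 of 225 cells, 136 CPM (121 to 154) and 189 CPM (172 to 208). The log2 ratio was 0.47 (0.25 to 0.70), with the EC-Cx43-KO library higher but short of 1.5-fold. The highest cell held 66 UMIs in each library, and the 5 highest cells held 63.0% and 48.1% of the Areg UMIs. Shares of cells with Areg were 13.4% and 19.1%, or 5.63% and 8.48% thinned to 1000 UMIs, and the intervals of the thinned shares (3.03% to 9.43% and 5.18% to 12.9%) overlapped. The cells with Areg had less of the dendritic list than the others, 5955 against 7507 CPM among control and 6207 against 7115 CPM among EC-Cx43-KO cells. The monocyte/macrophage list was higher in cells with Areg among control cells, 10366 against 8559 CPM. It was lower in those among EC-Cx43-KO cells, 6764 against 7181 CPM.

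The dendritic-like difference in Areg was not shared by all groups of cells within the class. Clustered again, the class fell into 5 subclusters. In the one led by Cxcl10 and the dendritic lectin Cd209a, 0 of 20 control cells held Areg, which allows up to 23.8 CPM. There 16 of 49 EC-Cx43-KO cells held 163 UMIs, 318 CPM (271 to 371). In the subcluster led by Ccl22 and the migration receptor Ccr7 the values were 48.1 CPM (33.1 to 67.6) and 103 CPM (77.2 to 135). Shares of cells with Areg went the other way there, 16.4% of 67 control and 10.6% of 47 EC-Cx43-KO cells. A single EC-Cx43-KO cell held 26 of the 53 UMIs. In the subcluster led by the haemoglobin gene Hbb-bs and by Sgms2, with 63 and 65 cells, the control value of 216 CPM (177 to 261) and the EC-Cx43-KO value of 178 CPM (146 to 215) overlapped. In the small subcluster led by Retnla, 12 and 7 cells held 127 and 82 UMIs, 871 and 969 CPM, again overlapping. The subcluster led by Chil3 and Ppbp held 2 and 10 UMIs. The difference also went opposite ways by sex-linked genes: among cells with Xist UMIs only Areg was lower in the EC-Cx43-KO library (187 and 99 UMIs, 138 and 93.6 CPM, log2 ratio -0.56, -0.93 to -0.20), and among cells with Y-linked UMIs only it was higher (58 and 274 UMIs, 163 and 387 CPM, 1.25, 0.84 to 1.68).

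In monocyte/macrophage-like cells, the phagocytes that enter and clear the injured wall, Areg was higher in the EC-Cx43-KO library. The 1505 control cells held 314 UMIs in 89 cells and the 1932 EC-Cx43-KO cells 777 UMIs in 144 cells, 37.0 CPM (33.0 to 41.3) and 65.9 CPM (61.4 to 70.7), a log2 ratio of 0.83 (0.64 to 1.03). The ratio stayed between 0.62 and 0.98 under every alternative computed for it. It was 0.91 among cells with Xist UMIs only and 0.71 among cells with Y-linked UMIs only, so it had the same sign in both. The highest cell held 22 UMIs in the control and 50 in the EC-Cx43-KO library. Shares of cells with Areg were 5.91% and 7.45%, or 2.37% and 3.08% thinned, closer together than the levels. The Fabp5/Ppbp-led cluster had the same direction, with 388 and 458 UMIs, 53.1 CPM (47.9 to 58.6) and 91.1 CPM (82.9 to 99.8), a log2 ratio of 0.78 (0.58 to 0.98).

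The clusters inside the monocyte/macrophage-like class differed in Areg. The cluster led by Ccl24 and Mmp19, which held most control cells of the class (1044 of 1505), had 49.7 and 89.7 CPM (log2 ratio 0.85). In the cluster led by the interferon-induced genes Cxcl10 and Rsad2, which had 150 control and 469 EC-Cx43-KO cells, Areg stood at 25.8 and 77.3 CPM (1.58, 1.04 to 2.17). The cluster led by the monocyte gene Chil3 had 7.67 and 23.8 CPM (1.63). The cluster led by Lyve1 and the haemoglobin scavenger receptor Cd163, genes of resident macrophages, went the other way with 24 UMIs in each library, 43.2 and 17.9 CPM (-1.28, -2.15 to -0.40). Haemoglobin RNA summed to 170 and 459 CPM in the whole class. Neutrophil-like, fibroblast-like and SMC-like cells held at most 8 Areg UMIs in either library. T/NK-like cells held 7 and 10 UMIs (17.4 and 21.6 CPM), and 17 EC-Cx43-KO cells of a cluster led by Il23r and Cd163l1 held 9.

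**Figure D4:**
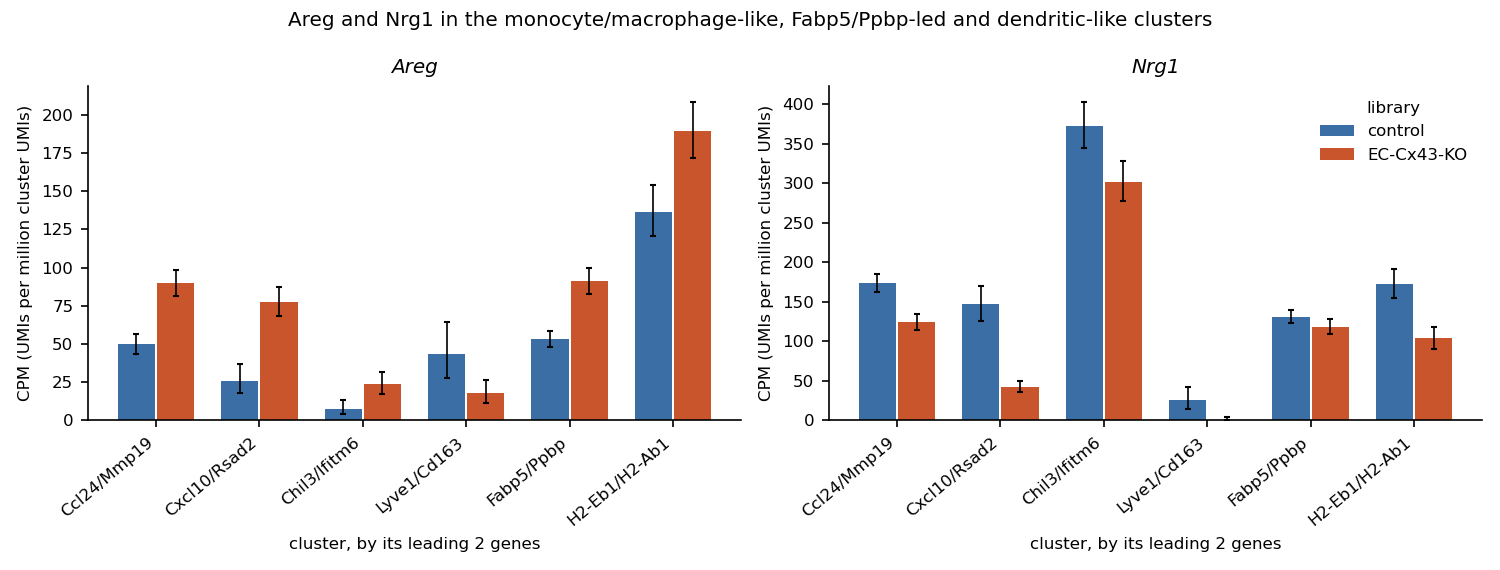
CPM (y axis) of Areg and Nrg1 in 6 myeloid clusters named by their leading genes (x axis), control and EC-Cx43-KO, with exact Poisson 95% intervals. Areg is higher in the EC-Cx43-KO library in 5 of 6 clusters and lower in the Lyve1/Cd163-led one. The H2-Eb1-led cluster among the 5 is the dendritic-like class, by whose difference Areg was chosen. Nrg1 has the lower value in the EC-Cx43-KO library in 6 of 6. Nothing is read from these counts.

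Barcodes called as doublets held more Areg than their number would give. The 363 called doublets of the control library held 498 of its 1512 Areg UMIs (32.9%, 108 CPM against 23.3 CPM in kept cells) and the 476 of the EC-Cx43-KO library 594 of 2289 (26.0%, 95.7 against 35.8 CPM). Nrg1 had 20.2% and 21.6% of its UMIs there, Hbegf 7.52% and 10.9%, and Tgfa 5.90% and 6.71%. With doublets kept, a cluster of 17 control and 26 EC-Cx43-KO barcodes appeared, led by the mast cell proteases Mcpt4, Cma1 and Tpsb2 and by Il23r, Il2ra and Il1rl1, with 131 and 48 Areg UMIs. All 131 control UMIs lay in 4 called doublets. Of these, 3 held 49, 45 and 36 Areg UMIs with 123, 113 and 134 UMIs of the ILC2 list and at most 3 UMIs of the mast cell list, beside 14, 11 and 8 UMIs of the T cell list and 20, 16 and 90 of the regulatory T cell list. The same 3 held 2, 6 and 0 UMIs of the monocyte/macrophage list, 0, 5 and 1 of the EC list and 1, 1 and 0 of the fibroblast list. Whether they held 2 cells was not tested beyond the doublet call. In the EC-Cx43-KO library the Areg barcodes of that cluster held 29, 10, 6 and 3 UMIs with 23, 21, 17 and 15 UMIs of the ILC2 list, 22, 14, 72 and 35 of the T cell list and 4, 2, 26 and 24 of the regulatory T cell list. The 3 barcodes per library with at least 10 mast protease UMIs held 0 Areg UMIs.

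Hbegf (ENSMUSG00000024486, chromosome 18), which encodes the heparin-binding ligand of EGFR and ERBB4, was the most abundant member in endothelial and smooth muscle cells by UMIs. EC-like cells held 1441 control and 1306 EC-Cx43-KO UMIs, 363 CPM (345 to 382) and 342 CPM (324 to 361), a log2 ratio of -0.09 (-0.20 to 0.02). Counting error alone covers that difference. The cells were uneven: 167 of 405 control cells (41.2%) and 145 of 428 EC-Cx43-KO cells (33.9%) had any, the highest held 131 and 85 UMIs, and thinned to 1000 UMIs the shares were 12.8% and 11.7%. The EC-like subcluster led by the cell cycle gene Ccnd1 and by Procr, with 64 and 52 cells, held most of the Hbegf UMIs, 830 in the control at 877 CPM (818 to 939) and 758 in the EC-Cx43-KO library at 1196 CPM (1113 to 1284). The other subclusters lay between 39.6 and 409 CPM. The lowest were the cells led by Lyve1 and Il15, at 63.5 and 39.6 CPM. By CPM, Hbegf in the Procr-led subcluster was thus higher in the EC-Cx43-KO library, while in the one led by Pde4c it was lower (257 and 186 CPM). The share of Procr-led cells with Hbegf went the other way, 79.7% in the control and 71.2% in the EC-Cx43-KO library. The 5 highest Procr-led cells held 52.2% and 46.3% of the Hbegf UMIs of that subcluster. By sex-linked genes the ratio was -0.24 (-0.42 to -0.07) in Xist-only and 0.25 (0.07 to 0.44) in Y-only EC-like cells.

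In SMC-like cells, which make up the media of the artery, Hbegf was lower in the EC-Cx43-KO library. The control held 1265 UMIs in 231 of 413 cells and the EC-Cx43-KO library 1163 UMIs in 256 of 551 cells, 309 CPM (292 to 327) and 218 CPM (206 to 231), a log2 ratio of -0.50 (-0.62 to -0.39). The intervals of the levels did not overlap, but the difference stayed under 1.5-fold. Both SMC-like clusters had this direction, the one led by contractile genes such as Tagln with 360 and 227 CPM (-0.66) and the one led by Sost with 258 and 206 CPM (-0.32). So did the cells split by sex-linked genes (-0.41 and -0.64), and the alternatives gave -0.64 to -0.39. Fibroblast-like cells held 59.0 and 56.6 CPM (-0.06, -0.20 to 0.08). The remaining classes were lower, between 13.9 and 29.8 CPM. Among them the Fabp5/Ppbp-led cluster had 19.1 and 28.4 CPM (0.57, 0.22 to 0.92), and the neutrophil-like, dendritic-like and monocyte/macrophage-like ratios had intervals across 0. Small groups with high Hbegf were the Schwann-like cells (276 and 283 CPM, 60 and 111 cells) and a shallow cluster led by the capillary endothelial genes Fabp4 and Gpihbp1 (284 and 199 CPM).

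Ereg, which encodes epiregulin and lies beside Areg, was found in vessel wall classes and hardly in the myeloid classes that held Areg. SMC-like cells held 179 and 229 UMIs, 43.8 and 43.0 CPM (-0.03, -0.31 to 0.26). EC-like cells held 110 and 130 UMIs, 27.7 and 34.0 CPM (0.30, -0.08 to 0.68). Neither class as a whole differed beyond counting error. Split by sex-linked genes, EC-like cells differed in opposite directions, with 71 and 25 Ereg UMIs (-0.80, -1.52 to -0.13) among Xist-only and 18 and 88 UMIs (1.52, 0.78 to 2.34) among Y-only cells. Within EC-like cells Ereg was highest in the Procr-led subcluster that also held most Hbegf, with 52.8 CPM (39.2 to 69.7) for control and 110 CPM (86.1 to 140) for EC-Cx43-KO cells, 1 of which held 28 of 70 UMIs. Fibroblast-like cells held 243 and 183 UMIs, 17.2 and 12.4 CPM (-0.48, -0.76 to -0.19), with the EC-Cx43-KO library lower. That difference was -0.76 among cells with Y-linked UMIs only and -0.02 among those with Xist UMIs only. The 5 fibroblast-like cells with most Ereg held 53.1% and 54.1% of its UMIs. In dendritic-like cells 0 Ereg UMIs were found in either library, which allows up to 1.86 and 1.69 CPM. The other myeloid classes held at most 5 UMIs per library. The SMC-like clusters differed in direction, with 79.1 and 60.9 CPM in the Tagln-led and 7.88 and 19.2 CPM in the Sost-led cells.

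Nrg1, which encodes the ERBB3 and ERBB4 ligand neuregulin 1, was lower in the EC-Cx43-KO library in monocyte/macrophage-like and dendritic-like cells. Monocyte/macrophage-like cells held 1682 control UMIs in 378 cells and 1327 EC-Cx43-KO UMIs in 410 cells, 198 CPM (189 to 208) and 113 CPM (107 to 119), a log2 ratio of -0.81 (-0.92 to -0.71). Shares of cells with Nrg1 were 25.1% and 21.2%, or 10.1% and 8.69% thinned to 1000 UMIs. The alternatives gave -0.99 to -0.55, always lower in the EC-Cx43-KO library, and both cells with Xist UMIs only (-0.95) and cells with Y-linked UMIs only (-0.79) had this sign. Without the Cxcl10/Rsad2-led cluster the log2 ratio was -0.56. In that cluster Nrg1 stood at 147 CPM in 150 control cells and 42.4 CPM in 469 EC-Cx43-KO cells (-1.79, -2.12 to -1.46). The Ccl24-led cells had 173 and 124 CPM (-0.48). The Chil3-led cells, in which Nrg1 is among the 10 leading genes although it was left out of the clustering, had 372 and 302 CPM (-0.30, -0.47 to -0.14). The Lyve1/Cd163-led cells held 14 and 1 Nrg1 UMIs (25.2 and 0.74 CPM). The Cxcl10/Rsad2-led and Lyve1/Cd163-led clusters, both lower in Nrg1 than the Ccl24-led and Chil3-led cells, had 469 and 273 cells in the EC-Cx43-KO library and 150 and 104 in the control. The Chil3-led cluster, the highest in Nrg1, had 222 and 190. In the Fabp5/Ppbp-led cluster Nrg1 was 131 and 118 CPM (-0.15, -0.30 to 0.00), with opposite signs among Xist-only (-0.21, -0.40 to -0.03) and Y-only cells (0.44, 0.08 to 0.81).

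Dendritic-like cells held 341 and 227 Nrg1 UMIs, 172 CPM (155 to 192) and 104 CPM (90.7 to 118), a log2 ratio of -0.73 (-0.98 to -0.48). The Ccl22/Ccr7-led subcluster had 198 and 83.6 CPM, while the Hbb-bs-led (168 and 158 CPM) and Chil3-led cells (211 and 158 CPM) overlapped. The Cxcl10/Cd209a-led subcluster, with 20 and 49 cells, was low in Nrg1 in both libraries (3 and 14 UMIs, 19.4 and 27.3 CPM), and the Retnla-led cells held 14 and 0 UMIs. Split by sex-linked genes the ratio was -0.51 (-0.82 to -0.22) with Xist UMIs only and -0.43 (-1.32 to 0.49) with Y-linked UMIs only. Neutrophil-like cells held 58 and 78 UMIs (0.35, -0.16 to 0.87).

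In endothelial and smooth muscle cells the Nrg1 values rested on a few cells. EC-like cells held 55 control UMIs in 21 cells and 111 EC-Cx43-KO UMIs in 23 cells, 13.9 and 29.1 CPM (1.07, 0.59 to 1.56). The 5 cells with most held 63.6% and 74.8% of these, and 89 of the 111 EC-Cx43-KO UMIs lay in 10 cells of the Pde4c-led subcluster. Without the 5 cells with most per library the log2 ratio was 0.53. Among Xist-only EC-like cells Nrg1 was lower in the EC-Cx43-KO library (47 and 14 UMIs, -1.04, -2.02 to -0.16), and among Y-only cells higher (6 and 81 UMIs, 2.99). The shares of EC-like cells with Nrg1, 5.19% and 5.37%, were nearly equal. SMC-like cells held 7 and 25 UMIs (1.71 and 4.69 CPM), and 13 of the 25 came from 1 cell. RNA free in the suspension was estimated to give 5.05 (control) and 3.43 CPM (EC-Cx43-KO) of Nrg1. The SMC-like control value lay below that estimate and the EC-Cx43-KO value slightly above it, with an interval (3.04 to 6.93 CPM) that covered it. The SMC-like log2 ratio was 1.46 (0.21 to 2.91), and among Y-only cells 1 and 6 UMIs were left (0.97 and 2.67 CPM). Fibroblast-like cells held 8.02 and 9.54 CPM (0.25, -0.12 to 0.62).

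Tgfa, which encodes the EGFR ligand transforming growth factor alpha, was held mostly by endothelial cells, with 252 of its 335 control UMIs there. The 252 control UMIs were in 148 EC-like cells and the 165 EC-Cx43-KO UMIs in 127, 63.5 CPM (55.9 to 71.9) and 43.2 CPM (36.9 to 50.3). The EC-Cx43-KO level was lower, with a log2 ratio of -0.56 (-0.85 to -0.27), just under 1.5-fold, and the intervals of the levels did not overlap. Unlike Areg and Nrg1 it did not rest on a few cells: the highest cell held 6 and 4 UMIs and the 5 highest 10.3% and 9.70%. The shares of cells with Tgfa were 36.5% and 29.7%, or 5.00% and 3.97% thinned to 1000 UMIs and 9.45% and 9.09% thinned to 2000. All 16 alternatives gave between -0.61 and -0.46, and Xist-only (-0.52) and Y-only cells (-0.54) gave like values. All 5 EC-like subclusters had the lower value in the EC-Cx43-KO library, with the widest gap in the Atp6v0d2/Dcn-led (88.5 and 46.4 CPM) and Procr-led cells (86.7 and 47.3 CPM) and the narrowest in the Lyve1/Il15-led cells (60.9 and 55.2 CPM). The intervals overlapped in all but the Procr-led cells (68.9 to 108 and 31.9 to 67.6). The Atp6v0d2/Dcn-led values rested on 22 and 11 UMIs. Fibroblast-like cells held 74 and 83 UMIs, 5.25 and 5.62 CPM (0.10, -0.37 to 0.57), of which the Smoc2-led cluster held 36 and 52 and the Cxcl5-led cluster 30 and 24. Dendritic-like, neutrophil-like and Fabp5/Ppbp-led cells held 0 Tgfa UMIs in both libraries, and SMC-like and monocyte/macrophage-like cells at most 5.

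Egfr, the receptor of Areg, Hbegf, Ereg and Tgfa, had its highest level in fibroblast-like cells. These cells held 6536 control and 7158 EC-Cx43-KO UMIs, 464 CPM (453 to 475) and 484 CPM (473 to 496), a log2 ratio of 0.06 (0.01 to 0.11). A UMI was found in 72.3% and 71.6% of the cells, or 28.8% and 30.9% thinned. The clusters of the class ranged widely. Cells led by Sdk1 and Bnc2 had 1429 and 1883 CPM (0.40, 0.27 to 0.53), the Igfbp5-led cells 669 and 672 CPM, the Cxcl5-led cells 355 and 375 CPM and the Smoc2-led cells 335 and 299 CPM (-0.16, -0.29 to -0.04). SMC-like cells had 105 and 106 CPM (0.00, -0.18 to 0.19), with no difference beyond counting error. EC-like cells had 6.55 and 6.02 CPM, below the 11.7 and 11.9 CPM estimated from free RNA. That estimate also exceeded the Egfr levels of dendritic-like cells and of the Fabp5/Ppbp-led cluster, given below. It was thus too coarse to show whether Egfr in EC-like cells lay above background. Dendritic-like cells held 14 and 10 UMIs (7.08 and 4.57 CPM), and their ratio of -0.63 passed 1.5-fold with an interval across 0 (-1.96 to 0.65). Both dendritic-like values also lay below the free RNA estimate. Egfr was at 13.4 CPM (9.19 to 19.0) and 17.1 CPM (12.4 to 23.1) in neutrophil-like cells. The control interval covered that estimate, and the EC-Cx43-KO interval began just above it. In the Fabp5/Ppbp-led cluster Egfr was at 3.42 and 3.58 CPM, below the estimate.

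The difference of Egfr in monocyte/macrophage-like cells lay in 1 cluster and in its share of the class. The class held 361 and 876 Egfr UMIs, 42.5 CPM (38.2 to 47.1) and 74.3 CPM (69.5 to 79.4), a log2 ratio of 0.81 (0.63 to 0.99). Of these UMIs 321 and 832 were in the Lyve1/Cd163-led cluster, which counted 104 control and 273 EC-Cx43-KO cells. Within that cluster the level was 578 CPM (517 to 645) and 619 CPM (578 to 663), a log2 ratio of 0.10 (-0.09 to 0.29), and 69.2% and 68.5% of its cells had an Egfr UMI. Without it the class had 40 and 44 UMIs and the log2 ratio was -0.26 (-0.91 to 0.40). Egfr in those cells lay below the 669 and 672 CPM of Igfbp5-led fibroblast-like cells, while the fibroblast marker list summed to 223 and 166 CPM there against 20118 and 18137 CPM in fibroblast-like cells. The ratio over the class was 0.15 among Xist-only and 1.26 among Y-only cells. The bars of Egfr by cluster show this cluster apart from the other macrophage clusters, which had at most 6.06 CPM for the Ccl24-led cells.

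**Figure D5:**
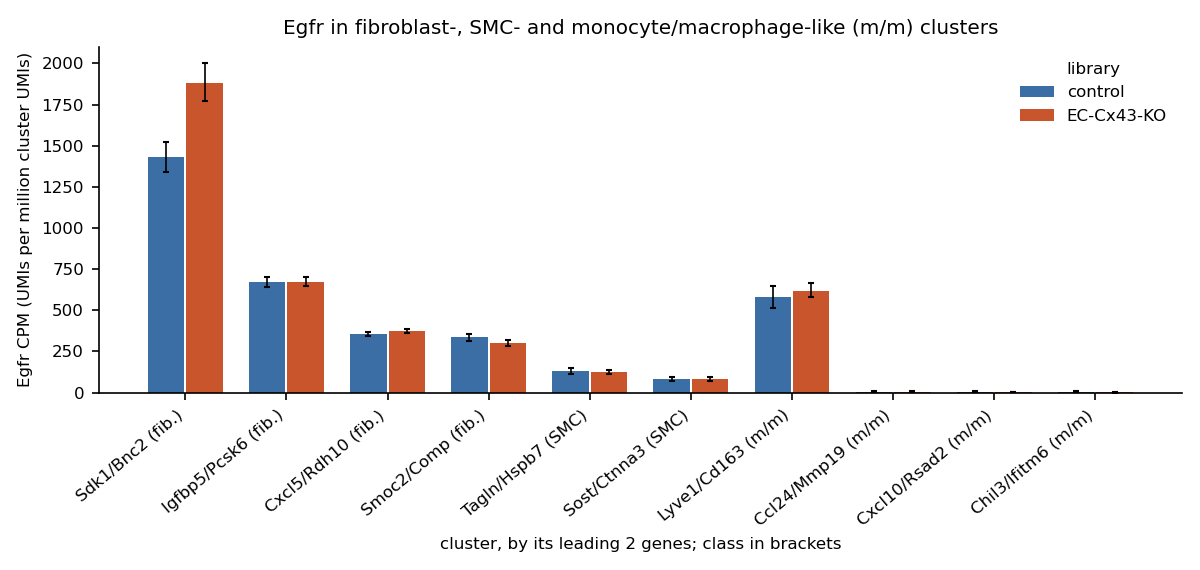
Egfr CPM (y axis) in fibroblast-, SMC- and monocyte/macrophage-like (m/m) clusters of at least 100 cells per library (x axis), control and EC-Cx43-KO, with exact Poisson 95% intervals. The Sdk1/Bnc2-led fibroblast-like cells reach 1429 and 1883 CPM, and the Lyve1/Cd163-led cells, at 578 and 619 CPM, are the macrophage cluster with a high bar.

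The other receptors and ligands of the family were read in the same classes. Erbb4, the receptor of neuregulins and Hbegf, was mainly in SMC-like cells, with 1691 and 1878 UMIs, 413 and 353 CPM (-0.23, -0.33 to -0.13), and was lower in EC-like cells (33.3 and 25.7 CPM). Erbb2, the partner receptor without a ligand, had 17.1 and 12.8 CPM in EC-like and 16.1 and 12.4 CPM in fibroblast-like cells. Erbb3 was highest in EC-Cx43-KO Schwann-like cells (119 CPM, 44 UMIs in 18 cells), where the control held 2 UMIs. Nrg4 was found in the Fabp5/Ppbp-led cluster (75.8 and 70.2 CPM) and in monocyte/macrophage-like cells (22.3 and 27.7 CPM). Btc, a further ligand of EGFR and ERBB4, had 9.65 and 8.19 CPM in fibroblast-like and 9.05 and 11.3 CPM in SMC-like cells. In EC-like cells 0 of 6 other ligands reached 20 UMIs.

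Genes that release the ligands or act downstream of the receptors were read from fixed lists. These lists were chosen with earlier results known, so their counts are a description, to be set beside the share of all genes past 1.5-fold (10.6% in EC-like cells, with 6.52% lower). In EC-like cells 3 of 13 feedback inhibitors counted were lower by 1.5-fold in the EC-Cx43-KO library and 0 higher: the ERK phosphatase gene Dusp5 (34.3 and 18.3 CPM, -0.90), the ubiquitin ligase gene Cblb (25.7 and 14.9 CPM, -0.78) and Socs5 (55.2 and 34.6 CPM, -0.68). The related phosphatase gene Dusp6 had the opposite sign (95.3 and 131 CPM, 0.46). Of 11 ERK response genes counted 1 was lower, Ccnd1, which encodes cyclin D1 (352 and 225 CPM, -0.64, -0.77 to -0.52). Of 8 sheddase genes and partners counted 1 was lower, Adam19 with 21 and 8 UMIs, and Adam17 had 85.7 and 78.6 CPM (-0.13). None of the 16 adaptor and Ras-ERK relay genes and none of the 8 CREB target genes counted passed 1.5-fold. The list medians in EC-like cells lay between -0.15 (relay) and 0.17 (CREB targets), beside -0.06 for all genes.

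In monocyte/macrophage-like cells, where 13.5% of all genes passed, Ccnd1 was higher in the EC-Cx43-KO library (64 and 474 UMIs, 7.54 and 40.2 CPM, 2.42, 2.04 to 2.82), and Egr3 lower (18.0 and 11.6 CPM, -0.63), the 2 of 13 ERK response genes past 1.5-fold. Of 12 feedback inhibitors 2 were lower, Lrig3 and Spry1, with 21 and 34 UMIs over both libraries, and 0 of 8 sheddase genes passed. In dendritic-like cells, where 19.5% of all genes passed and 12.9% were lower, Ccnd1 (81.9 and 168 CPM, 1.04) and Ier3 (119 and 209 CPM, 0.82) were higher and Lif lower among 13 ERK response genes. Dusp6 was lower there (77.3 and 48.9 CPM, -0.66), as was Adam15, 1 of 7 sheddase genes (134 and 87.8 CPM, -0.61). Of 8 CREB targets 2 were lower in dendritic-like cells, Nr4a3 (308 and 201 CPM, -0.62) and Pde4d (99 and 70 UMIs, -0.64), with a list median of -0.42 beside -0.12 for all genes. Of all genes 10.2% passed in SMC-like and 11.5% in fibroblast-like cells. In SMC-like cells Spry1 (17.9 and 9.95 CPM, -0.84) was the 1 of 14 feedback inhibitors past 1.5-fold, and in fibroblast-like cells Adam8 (4.47 and 2.10 CPM, -1.09) the 1 of 9 sheddase genes. In fibroblast-like cells 0 of 14 feedback inhibitors and 0 of 14 ERK response genes passed.

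Dissociation stress genes, which respond to the digest, were read in the same way. In EC-like cells 1 of 13 passed 1.5-fold, the heat shock gene Hspa1b (151 and 94.8 CPM, -0.67), and the list median was 0.12. In dendritic-like cells Hspa1a (106 and 50.3 CPM) and Hspa1b (91.5 and 45.3 CPM) were lower. In SMC-like cells Hspa1b was higher (96.8 and 163 CPM, 0.76), as was Dnajb1 in neutrophil-like cells (17.2 and 35.8 CPM, 1.06), each 1 of 13, and in the other classes 0 of 13 passed. Their part in the member values was not tested.

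Hbegf was found more often in EC-like cells with Ereg than in those without, though the former were deeper. Among EC-like cells with Ereg, 58.9% (control) and 64.9% (EC-Cx43-KO) also had Hbegf, against 38.4% and 29.1% of cells without Ereg. The median depth of the former was 10671 and 12724 UMIs and of the latter 6790 and 6889. In monocyte/macrophage-like cells Egfr and Nrg1 were seldom together: 9.82% and 5.73% of Egfr-positive cells had Nrg1, against 26.3% and 23.3% of the others, at median depths of 5030 and 4736 against 4817 and 5917 UMIs. Most Egfr UMIs of that class, 321 and 832, lay in the Lyve1/Cd163-led cluster, which held few Nrg1 UMIs. The pair was not read within single clusters. Cells with Areg had Nrg1 about as often as cells without it in that class, 29.2% and 22.2% against 24.9% and 21.1%.

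Over the 14 sums of 7 classes in 2 libraries, the genes whose log2(CPM + 10) followed each member most closely were named by Pearson correlation, as a description over points that share libraries and depth. For Areg these were the interleukin 21 receptor gene Il21r (0.99), Hormad1 (0.97) and the transcription factor gene Runx3 (0.97). For Hbegf they were Pkp4, Uchl1 and 2900026A02Rik (0.99 each), and for Ereg the platelet-derived growth factor gene Pdgfd (0.99), Apbb1 (0.99) and Kank1 (0.99). For Nrg1 they were the ceramidase gene Acer3, A630001G21Rik and Pisd (0.98, 0.98 and 0.97). For Tgfa they were Muc13 (1.00), Bace2 (0.99) and Hspa12b (0.99), and for Egfr the complement gene C4b (0.98), Btbd11 and Gm50012 (0.95 each). Among the members Hbegf and Ereg (0.95) and Areg and Nrg1 (0.87) were the closest pairs.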

How the data were processed

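Single cells of 2 pooled mouse carotid artery libraries, 1 per group, were measured with 10x 3' sequencing. The deposited values are raw UMI counts per gene and barcode, made by the authors with Cell Ranger 8.0.1, per the file headers. The submitters' processing notes also list STAR, without a version, and mm10. The lowest deposited barcode has 501 UMIs. The deposited counts sum to 48862850 UMIs in the control and 54392831 in the EC-Cx43-KO library.

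Barcodes with fewer than 300 genes or over 15% mitochondrial UMIs were left out. Doublets were called against simulated ones at an assumed rate of 0.008 per 1000 cells, and 363 (5.39%) and 476 (6.17%) were removed. Cells were clustered on 2000 variable genes, without EGF genes and Gja1, with 30 components, 20 neighbours and Leiden resolution 1. The 24 clusters were named from marker lists of cell types, or left unnamed where markers of another type led or the depth was low. UMIs were summed per class and library and divided by the class total (CPM), with exact Poisson intervals. log2 ratios have exact conditional binomial intervals, a floor of 3 UMIs and a minimum of 20 UMIs over both libraries, and shares have Clopper-Pearson intervals, all at 95%. Free RNA was estimated, from markers of other classes, as 6.82% of control and 6.48% of EC-Cx43-KO UMIs. These are medians over pairs of a class and a marker list. The single values ran from 1.30% to 185% in the control and from 0.99% to 129% in the EC-Cx43-KO library, so the estimate is coarse. Ratio code was tested on simulated data. With 1 library per group there is no test, and UMIs from 1 pool measure these libraries, not the conditions.

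The members, lists and classes were chosen with earlier results of these data known. Named genes were the members, up to 4 genes per list with at least 50 UMIs and the largest ratios, the 3 genes with the most similar pattern, and the markers of a list whose sum is given; the cluster and subcluster leaders, Adam19, Lrig3, Lif, the CREB and stress genes and the genes of single barcodes were named after their values were seen. Alternatives were other filters, resolutions, scalings and cell subsets, and leaving out single barcodes or clusters, the latter chosen after seeing the data. Promoters are from RefSeq (GRCm38.p6). Clustering used leidenalg 0.10.2 with igraph 0.11.9, components came from scikit-learn 1.9.0, intervals from SciPy 1.17.1, tables from pandas 2.3.3 and NumPy 2.4.6, and plots from matplotlib 3.10.9, all under Python 3.11.15.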

Additional observations from a re-analysis of the deposited data

Results flagged for a closer look

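Areg was lower in EC-like cells of the library labelled EC-Cx43-KO (log2 ratio -1.53, 18 and 6 UMIs) and higher in monocyte/macrophage-like cells (0.83) and in the Fabp5/Ppbp-led cluster (0.78). These opposite directions between classes drew attention, and the difference between the classes was not tested. Areg was chosen by its EC-like difference, so that value supports nothing. The EC-Cx43-KO level of Areg in EC-like cells also lay below the free RNA estimate. Nrg1 was lower in monocyte/macrophage-like (-0.81) and dendritic-like cells (-0.73) and higher in EC-like (1.07) and SMC-like cells (1.46), the last with 7 and 25 UMIs, and this difference was likewise not tested. The SMC-like control value of Nrg1 lay below the free RNA estimate. In EC-like cells the Nrg1 ratio was -1.04 among Xist-only and 2.99 among Y-only cells.

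Areg was also found in barcodes left out of the main comparisons: 498 UMIs in called doublets of the control library and 594 in those of the EC-Cx43-KO library. Only alternatives, such as the one with doublets kept, used any of them.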

How the results depend on the processing

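Over 26 member ratios and their alternatives, 413 values were computed: 346 moved by less than their counting interval, 63 moved further, and 4 ratios past 1.5-fold changed sign, 2 of them only because counts under 3 UMIs were raised to the floor of 3. Areg in EC-like cells was -3.60 with at least 500 genes per cell, -3.89 with up to 25% mitochondrial UMIs, and 0.060 without the 5 cells per library with most Areg, where 3 and 1 UMIs were left and the floor, not the counts, gave the sign. In the former pair the control barcode with 82 Areg UMIs was kept, and without the barcode with most Areg in each library the values were -1.13 and -1.42. Areg in dendritic-like cells was 0.73 with at least 500 genes, 1.02 with up to 25% mitochondrial UMIs, 0.95 without the 5 cells with most, -0.56 in Xist-only and 1.25 in Y-only cells. By subcluster alone it was -0.28, 1.77, 1.10, 4.04 and 0.15, with 1.77 and 4.04 computed against the floor of 3 UMIs. Nrg1 turned to -1.04 in Xist-only EC-like cells and was computed as -0.12 in Y-only SMC-like cells, where the floor raised the control's 1 UMI and the CPM kept its direction (0.97 and 2.67). Egfr in monocyte/macrophage-like cells turned to -0.26 without the Lyve1/Cd163-led cluster. Where no value above shows a cause, the cause was not tested.

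With a minimum of 100 UMIs per gene the numbers of genes past 1.5-fold were 248 instead of 1232 in EC-like, 267 instead of 1219 in SMC-like, 449 instead of 1647 in fibroblast-like, 596 instead of 1664 in monocyte/macrophage-like, 404 instead of 1600 in neutrophil-like, 568 instead of 1813 in dendritic-like cells and 241 instead of 1134 in the Fabp5/Ppbp-led cluster, with fewer genes counted. No EC-like subcluster was led by leukocyte markers, so that alternative gave no value, nor did Areg in Y-only EC-like cells, with 1 and 2 UMIs. No paired analysis was possible because each group is 1 library.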
